A study of Canis lupus familiaris with 33 samples.

Results

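The pancreas was represented by 1 list of methylated regions, which was set against the lists of 10 other dog tissues. All autosomal peaks of the 11 lists were merged where they overlapped or touched, which gave 450785 union regions on the 38 autosomes. A pancreas peak lay in 218361 of them (48.4%), and these are called pancreas regions. Among all union regions, 418 had a peak in pancreas alone (pancreas-only regions), 3021 had a peak in the 10 other tissues and none in pancreas (pancreas-lacking regions), and 121527 had a peak in all 11 lists (shared regions). Presence in a region required 1 base of a peak. Because each set was chosen by the presence of peaks, its size is a description.

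The tissues came from adult beagles and carried no treatment or genetic change in the labels. Besides pancreas they were 3 digestive organs (colon, stomach and liver), 2 parts of the brain (cerebrum and cerebellum), and lung, spleen, kidney, ovary and mammary gland. The labels give no ages. DNA sheared to about 300 bp was captured with MethylMiner beads from 500 ng of DNA and eluted with 600 and 800 mM salt, and each tissue had 2 captured libraries, 1 uncaptured input library and 1 peak list. The pancreas libraries came from animal 679, labelled female, and animal jj8, labelled male, and the pancreas input came from animal 679. The cerebellum, cerebrum, kidney, liver, lung and spleen libraries carried the same pair of animals. The colon and stomach libraries came from animals 679 and jj82, and the mammary gland and ovary libraries from animals 244 and 679. Inputs of kidney, mammary gland and ovary also came from animal 679, and the other 7 from jj8. The protocol describes 3 dogs (1 male and 2 female), whereas the titles carry 4 animal identifiers, and jj8 is labelled female in its input libraries. Which animals are one and the same could not be settled from the labels.

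Cytosine methylation at CpG sites is a heritable mark of the DNA itself, and beads carrying a methyl-CpG-binding domain (MBD) retain fragments with several methylated CpGs close together. The fold of a peak therefore depends on how many CpGs a fragment holds as well as on the share of cells in which they are methylated. Most of the pancreas consists of acinar cells, which make digestive enzymes, with ducts that carry the secretion and islets of hormone-producing cells among them. In a tissue sample, a smaller share of cells with a methylated region cannot be told apart from less methylation of that region in every cell. The gene, exon or promoter at each position, the CpG content of the regions and the levels at pancreatic gene loci were not analysed here, so that each region is named by its position in CanFam3.1.

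Since a tissue had 1 list, there is no spread between replicates and no test between pancreas and the rest. The place of pancreas among the 11 tissues is given as a description, and 1 list against 10 could not give an exact p below 0.0909. Intervals are 95% Wilson intervals and cover counting error only. The number of reads behind the lists is unknown.

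The pancreas list was short and its peaks were narrow. It held 257860 autosomal peaks, more than those of colon (251352) and 1 other tissue and fewer than those of the 8 remaining tissues, of which ovary had the most (353642). The median pancreas peak was 297 bases wide, the lowest of the 11 tissues, with stomach next at 298 and cerebrum highest at 359. Pancreas peaks covered 139.8 Mb of the autosomes, again the lowest value, against 145.6 Mb in stomach and 210.2 Mb in ovary. Within shared regions pancreas peaks covered a median of 0.895 times the bases that the median other tissue covered, while the same ratio ran from 0.923 in stomach to 1.12 in ovary for the other tissues. The fold enrichments of pancreas peaks were high, with a median of 8.0 that ranked 3 of 11 (6.19 in lung to 8.80 in stomach). The shortest pancreas peak had 175 bases, and the shortest peak of another list had 182 bases in liver and up to 218 in kidney.

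Pancreas regions were mostly regions that other tissues had too. Of the 218361 pancreas regions, 121527 (55.7%) were present in all 11 lists, 36685 (16.8%) in 10 lists, and 1096 (0.502%) in pancreas and exactly 1 other tissue. The shared regions are the same for every tissue, so the share of 55.7% depends only on the number of pancreas regions. For the other tissues that number ran from 217862 in colon to 334436 in ovary. The width of the regions rose with the number of lists that held them, from a median of 197 bases in pancreas alone to 418 bases in 10 lists and 798 bases in all 11. To compare folds between lists, the highest fold of a list's peaks in a region was divided by the median fold of that list, and the result is called the relative fold. The relative fold of pancreas rose likewise, from a median of 0.563 in pancreas-only regions to 0.879 in regions of 10 lists and 1.42 in shared regions. A region spans the merged peaks of all its lists, so each further list can only widen it. The relative fold is the highest within that span. The part of this construction in both rises was not tested.

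**Figure D1:**
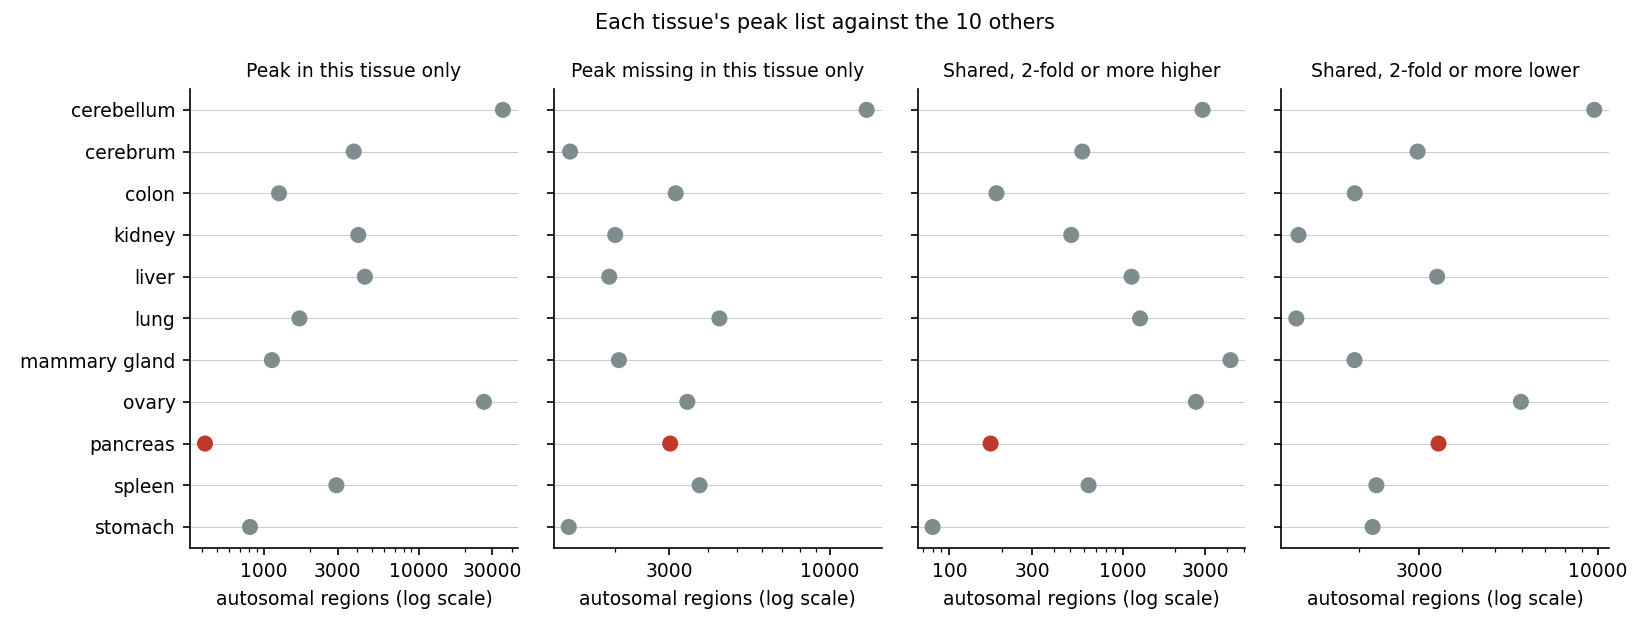
Number of autosomal regions by tissue (rows) on log scales, for regions with a peak in 1 tissue alone, regions whose peak is missing in 1 tissue alone, and shared regions with a relative fold at least 2-fold above or below the median of the other 10 lists. Pancreas (red) had the lowest count of regions of its own, 418, the second lowest count of higher shared regions, 173, and the third highest count of lower shared regions, 3423, as deposited.

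Regions with a lower fold in pancreas outnumbered regions with a higher fold, as they did in 10 of the 11 tissues, mammary gland being the exception. In each shared region the log2 ratio of the pancreas relative fold to the median of the 10 others was computed, and a region was called lower or higher at a ratio of −1 or less or of 1 or more, which is 2-fold. Pancreas was lower in 3423 of 121527 shared regions (2.82%, interval 2.73 to 2.91), the third highest count after cerebellum (9747) and ovary, and higher in 173 (0.142%, interval 0.123 to 0.165), where stomach alone had fewer (80) and mammary gland had the most (4192). Pancreas lay below all 10 other lists in 12205 shared regions (10.0%) and above all of them in 4396 (3.62%). The latter was the lowest count of the 11 tissues, where colon followed with 4886 and mammary gland had 20341. Pancreas was at least 2-fold below every other list in 140 regions, and at least 2-fold above every other list in 1.

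The whole distribution of pancreas ratios was shifted to the low side, with few values far above 0. The median log2 ratio was −0.09 (SD 0.42 over regions), against −0.14 in ovary to 0.12 in lung, and 59.6% of shared regions lay below 0, the highest share of the 11 tissues. The upper quartile of 0.16 was the lowest of the 11, with stomach next at 0.24. This shift depended on the scale, since dividing by each list's median over shared regions in place of all its peaks gave a median of −0.02, 2481 lower and 295 higher regions. With equal numbers of peaks from each list, taken by −log10 p-value, the median was −0.00253, and taken by fold it was 5.55e-06, with no shift left. By −log10 p-value there were 1644 lower and 213 higher regions. Higher regions made up 4.81% of the lower and higher regions together on the first scale, where stomach had 3.51% (80 of its regions higher and 2198 lower), colon 8.75% and mammary gland, the highest, 68.3%. The pancreas share was 10.6% on the second, and 38.8% when fold percentiles within the list were compared with a limit of 25 percentile points. On the second scale pancreas lay below all others in 9227 regions, a rank of 6 of 11, and above all others in 7136, a rank of 8. The count of lower regions ranked 5 of 11 on that scale and with equal list lengths, in place of 3. The count of higher regions ranked 8 with equal list lengths and with the 50% of each list of highest fold, and 9 on the second scale, in place of 10. With presence defined by 50% of a region there were 1819 lower regions, again at rank 5, and 111 higher ones, at rank 9.

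**Figure D2:**
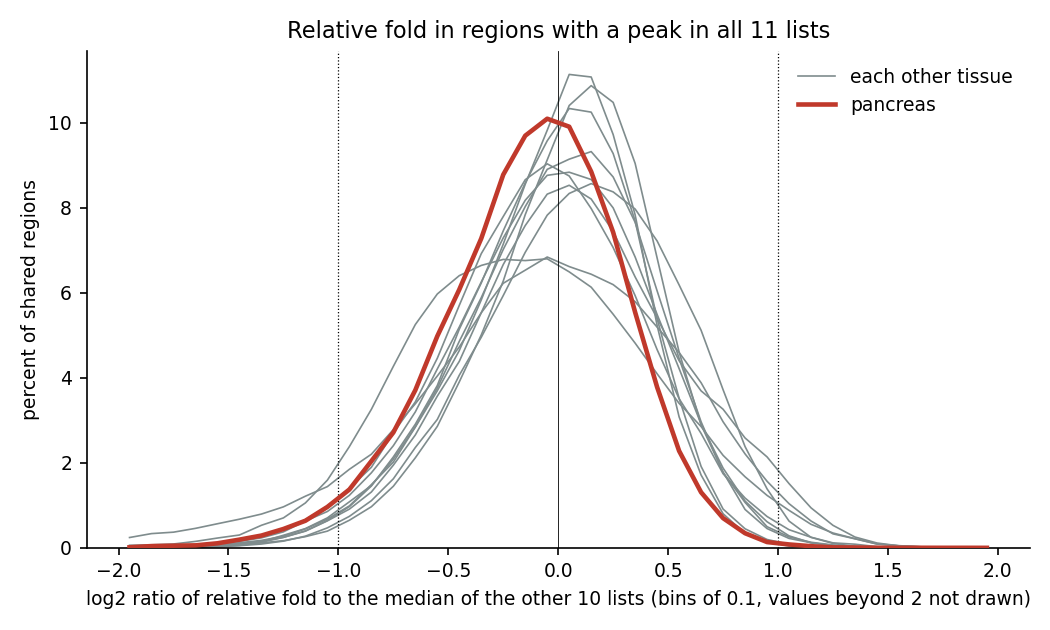
Percent of the 121527 shared regions (vertical) by log2 ratio of a tissue's relative fold to the median of the other 10 lists (horizontal, bins of 0.1), for pancreas (red) and each other tissue (grey), with dotted lines at the limits of −1 and 1. The pancreas curve has its median at −0.09 and its upper quartile at 0.16, the lowest upper quartile of the 11 tissues.

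The strength and the width of a region had little bearing on the median ratio and more on the share of lower regions. Across quintiles of the shared regions by the others' median relative fold, the median pancreas ratio ran from −0.07 to −0.12. By width, 1.59% of the narrowest quintile and 1.70% of the widest were lower in pancreas, against 3.39% to 3.70% in the 3 quintiles between. Lower regions had a median width of 793 bases, close to the 798 bases of all shared regions, and the widest one had 9537 bases. Their median pancreas relative fold was 0.606, whereas the 10 other tissues had medians from 1.28 in stomach to 1.49 in lung over the same regions. Among the other tissues, cerebellum was most often the lowest in the pancreas-lower regions (17.0%, and 16.1% of all shared regions). Stomach was the lowest in 14.8% of the pancreas-lower regions and in 8.47% of all shared regions. Its own median log2 ratio there was −0.12, that of ovary −0.01, and those of the 8 remaining tissues ran from 0.04 to 0.20. The region just inside the lower limit was chr7:38082870-38083787, with a ratio of −1.0001, and the one just outside was chr24:35904137-35904488, with −0.9999.

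The 8 lowest pancreas values outside the range of the other tissues were 4.81 to 6.45 times below the median of the others. At chr10:18484919-18485461 the pancreas relative fold was 0.370, from a peak with a fold of 2.96 over 248 of the 543 bases. The 10 others ran from 1.5 in kidney through a median of 2.40 to 3.77 in mammary gland, for a log2 ratio of −2.69. Every other list thus lay far above pancreas in this region, and on the log2 scale their range was narrower than the distance of the lowest of them to pancreas. At chr2:80772823-80773791 the pancreas relative fold was 0.439, and the others ran from 1.19 in cerebellum through 2.19 to 2.67 in lung (log2 ratio −2.32). Here too no other list came near the pancreas value.

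Other regions of this group had a second tissue on the low side. The pancreas value at chr1:759955-760885 was 0.374, with cerebellum at 0.452, kidney at 0.668, a median of 2.27 and lung highest at 3.20 (log2 ratio −2.60). Pancreas and cerebellum nearly overlapped there, so the ratio to the median does not set pancreas alone apart. The region chr27:3029246-3031071 spanned 1826 bases, of which pancreas peaks covered 245, and had a pancreas relative fold of 0.336 against 0.582 in kidney, a median of 2.03 and 3.84 in mammary gland (log2 ratio −2.60). The lowest relative fold of pancreas in the group, 0.260, was at chr1:121069959-121071393, where the others ran from 0.827 in cerebellum through 1.56 to 2.37 in kidney (log2 ratio −2.58). The 3 regions not yet described were chr5:23656347-23657321, with 0.337 in pancreas and 0.542 in liver as the next value, chr10:27018961-27020373, with 0.510 and 0.856 in stomach, and chr20:7372787-7373626, with 0.444 and 0.742 in cerebrum. Their log2 ratios were −2.42, −2.31 and −2.27. All 8 had a pancreas peak, so presence by 1 base counts them as alike in pancreas and the other tissues. With presence by 50% of a region none of the 8 was shared, but pancreas itself covered 646 of 931 bases at chr1:759955-760885 and 600 of 840 at chr20:7372787-7373626.

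Higher regions were few. Over the 173 regions the median relative fold was 2.96 in pancreas and 1.23 in cerebrum to 1.73 in lung for the other tissues. The highest fold enrichment of the whole pancreas list, 87.3, was at chr18:45361863-45362651, where the pancreas relative fold was 10.9. The others ran from 1.11 in stomach through 3.00 to 6.09 in ovary, for a log2 ratio of 1.87, so that pancreas stood 3.66-fold above their median. At chr31:103522-103960 pancreas had a relative fold of 1.90 while the others ran from 0.321 in cerebrum through 0.588 to 0.827 in colon (log2 ratio 1.70). This was the 1 region in which pancreas exceeded every other list at least 2-fold. At chr33:2172725-2174100 pancreas had 6.51 and the others ran from 1.58 in ovary through 2.13 to 3.83 in lung (log2 ratio 1.61).

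At chr19:53038643-53039251 the tissues fell into a wide range below the pancreas value of 4.35. Kidney (3.25), lung (3.19), colon (2.94) and stomach (2.79) were also high there, whereas cerebellum had 0.420 and liver 0.592, and the log2 ratio was 1.71. At chr4:10464707-10465562 pancreas had 7.86 and stomach 6.19, with the lowest value of 1.82 in ovary and a median of 2.90 (log2 ratio 1.44). Pancreas and stomach were thus the highest pair in that region. The other 3 of the 8 were chr25:50577598-50578233, with 3.31 in pancreas and 2.29 in lung as the next value, chr30:1561404-1561874, with 6.41 and 4.91 in mammary gland, and chr26:10488349-10489588, with 2.82 and 1.66 in ovary. Their log2 ratios were 1.46, 1.39 and 1.37. The region just inside the higher limit was chr31:36694355-36695041, with a ratio of 1.0018, and the one just outside was chr34:39638362-39638783, with 0.9998.

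**Figure D3:**
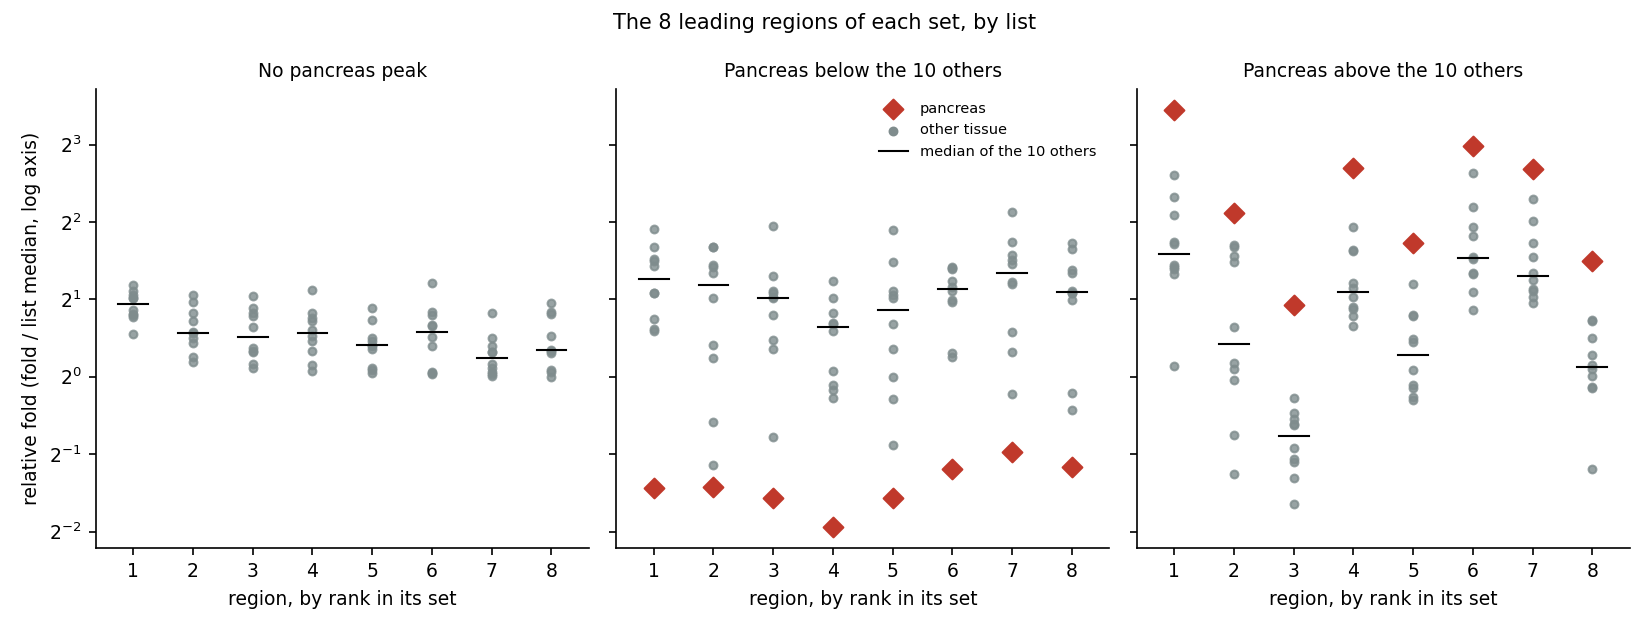
Relative fold (fold divided by the list median, log axis) in the 8 leading regions of 3 sets, numbered by rank, with pancreas as red diamonds, each other tissue as a grey point and the median of the 10 others as a line. In the lower set pancreas lies between 0.260 and 0.510 with the others' medians between 1.56 and 2.54, and in the set with no pancreas peak every other tissue is at or above 1.00.

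Pancreas-lacking regions were mostly weak in the tissues that had them. The 3021 regions were 2.43% of the regions present in the 10 other lists (interval 2.34 to 2.51), and the same count ran from 1414 in stomach to 13152 in cerebellum, with pancreas at rank 6 of 11. Their median width was 417 bases, with an interquartile range of 338 to 624 and a largest width of 2380, and 201 were 1000 bases or wider. With equal list lengths there were 1488 such regions by fold and 1524 by −log10 p-value, a rank of 8. The rank was 4 with the 50% of each list of highest fold (1283 regions) and 3 with presence by 50% of a region (4024 regions). The median relative fold of the other tissues in them had a median of 0.887, compared with 1.47 in shared regions. It was 1 or more in 745 (24.7%) and 2 or more in 2. In 8 regions every other list had a relative fold of 1 or more. Most pancreas-lacking regions therefore held peaks weaker than the typical peak of their lists. For the regions lacking in each other tissue, the median that was 0.887 here ran from 0.822 in stomach through 0.920 to 1.09 in cerebellum. Weak peaks in lacking regions were thus not particular to pancreas, which ranked 8 of 11.

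By relative fold, stomach and colon were the weakest of the other tissues in the pancreas-lacking regions. Over the pancreas-lacking regions the median relative fold was lowest in colon (0.753) and stomach (0.754), and highest in cerebellum (1.07) and ovary (1.02). Stomach was the weakest of the others in 21.8% of the regions and colon in 19.3%, while cerebrum was the weakest in 4.04%. In all shared regions these tissues were the lowest of the others in 8.47%, 9.14% and 8.51%. Stomach and colon also had the highest median folds of the 11 lists, 8.80 and 8.17, by which their folds are divided, and the part of this in their low values was not tested. In 5365 further regions pancreas and exactly 1 other tissue lacked a peak. The partner was cerebellum in 959 of them (17.9%), which is 12.4% of the regions that cerebellum lacked with 1 other tissue. It was colon in 842 (15.7%, and 14.9% of those of colon) and stomach in 614 (11.4%, and 19.6% of those of stomach). By count lung, with 633 (11.8%), also came before stomach. As a share of the partner's own regions, stomach and colon came first, followed by liver (12.9%), cerebellum and lung (11.5%).

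The distance from a pancreas-lacking region to the nearest pancreas peak varied widely. Pancreas had a median of 107 peaks per Mb by chromosome, and the distance expected from this density was not computed. The nearest pancreas peak lay at a median distance of 2583 bases, within 500 bases for 439 regions (14.5%), and more than 10 kb away for 521 (17.2%). The furthest was 131636 bases away. For 1603 pancreas-lacking regions there was a shared region within 5 kb, and its median log2 ratio was −0.18, below the −0.09 of all shared regions. In 24.0% of these neighbours the ratio was −0.5 or less, compared with 17.6% of all shared regions. The same median for the regions lacking in each other tissue ran from −0.54 in cerebellum to 0.01 in lung, so that a lower fold beside a missing peak was not particular to pancreas.

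The 8 pancreas-lacking regions with the highest lowest value among the other lists had clear peaks in all 10. At chr20:50337665-50338192, a region of 528 bases, the others ran from 1.47 in colon through a median of 1.92 to 2.27 in liver, with folds of 12 to 16 before scaling. The nearest pancreas peak was 991 bases away. At chr23:13564990-13565911, which was 922 bases wide, the others ran from 1.08 in lung through 1.42 to 2.06 in ovary, and the nearest pancreas peak was 74802 bases away. This distance was by far the longest of the 8, where the others lay 548 to 6641 bases from a pancreas peak. At chr2:31587975-31588558 the others ran from 1.14 in stomach through 1.48 to 2.08 in colon.

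The 5 further regions of this group were 346 to 417 bases wide and had lowest values of 1.00 to 1.06. At chr34:36894687-36895035 colon was lowest (1.06) and stomach highest (2.17), and the median was 1.48. Mammary gland was lowest (1.04) and liver highest (1.85) at chr9:51458256-51458672, where the median was 1.33. At chr8:3662523-3662891 the values ran from 1.03 in ovary through 1.5 to 2.32 in lung. Cerebellum stood apart at chr21:8713668-8714016 with 1.77, while liver was lowest at 1.01 and the median was 1.18. At chr20:30053456-30053801 mammary gland had 1.00, the median was 1.27 and cerebrum had 1.94. The tissue with the lowest and the tissue with the highest value thus changed from region to region.

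Pancreas-only regions were few, narrow and weak. The 418 regions were 0.0927% of all union regions (interval 0.0843 to 0.102) and 0.191% of pancreas regions, the lowest count of the 11 tissues. Stomach followed with 816 and mammary gland with 1130, and cerebellum had the most with 35014. Their median width was 197 bases, and 291 of them (69.6%) were under 210 bases. Among the other lists with peaks that short, the same share ran from 11.9% in colon to 48.4% in stomach. The lists of cerebrum, lung, mammary gland, kidney and ovary held no peak under 210 bases, so their share of 0% was fixed in advance. The pancreas list holds shorter peaks than the other lists, whose shortest peaks had 182 to 218 bases, and 227 of the 418 regions were under 200 bases. The part of the different length limits in these counts was not tested. The count was 640 without liver and 650 without ovary among the other tissues, and 984 (by fold) or 1037 (by −log10 p-value) with equal list lengths. The median fold was 4.51 and the median relative fold 0.563, and 12 regions had a relative fold of 1 or more. Another union region lay within 1 kb of 249 of the 418, and the median gap of 770 bases to the nearest one was close to the 784 bases of all union regions.

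Few pancreas-only regions were strong. Of the 8 with the highest relative fold, 3 were on chromosome 16, 2 on chromosome 20, and 1 each on chromosomes 5, 10 and 26. The region chr16:20019263-20020690 was 1428 bases wide with a fold of 20.1, a relative fold of 2.52 and a −log10 p-value of 104 in the deposited list. The region chr16:17357127-17358141 was 1015 bases wide with a fold of 16.1 and a relative fold of 2.01. The third, chr16:72477-72733, had 257 bases, a fold of 9.60 and a relative fold of 1.20. At chr10:7474388-7475135 a region of 748 bases had a fold of 16.3 and a relative fold of 2.04, and a second pancreas-only region began at base 7473315, so that the pair spanned 1.82 kb. These 4 regions include the 3 pancreas-only regions with a relative fold of 2 or more.

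The remaining 4 of the 8 were close to the list median. A region of 1375 bases at chr26:10781197-10782571 had a fold of 9.17 and a relative fold of 1.15. The region chr20:6399429-6399767, with a fold of 9.59, was isolated, since the nearest union region of any tissue lay 24099 bases away. The region chr20:49188110-49188502 had a relative fold of 1.14, and chr5:19792568-19792803 had 1.08. Both were under 400 bases wide.

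Regions shared with a single other tissue named no clear partner of pancreas. Of the 1096, 216 were shared with ovary, 211 with liver, 155 with cerebellum, 123 with stomach and 35 with colon. Taken as a share of the regions that each partner had with exactly 1 other tissue, stomach came first with 6.57%, followed by mammary gland with 3.57% and liver with 3.38%, while ovary had 0.801%. Over the shared regions, the log2 relative folds of pancreas correlated most with stomach (r = 0.790) and colon (r = 0.782) and least with cerebellum (r = 0.497). These are correlations across 121527 regions that share CpG content and width, with no replicate behind them.

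Regions of the pancreas sets were mostly scattered, and a small part of the low ones lay together. Of the 418 pancreas-only regions, 384 were more than 50 kb from the next one, and the others made 15 pairs and a single cluster of 4 at chr32:8245269-8267104, which spanned 21.8 kb. The pairs with the lowest chromosome numbers were chr1:112973877-112982738, chr5:32093268-32122140, the pair on chromosome 10 named above and chr11:67282107-67294783. Of the 3021 pancreas-lacking regions 2372 were single. The others formed 248 pairs and 47 clusters of 3 or more within 50 kb, so that 21.5% of the regions had a neighbour, against 12.2% in stomach to 75.2% in cerebellum for regions lacking there. The largest clusters, of 5 regions each, were chr3:74164190-74218004 and chr8:63765698-63843667. Clusters of 4 included chr4:3737322-3781236, chr4:74842787-74903525 and chr5:15725808-15769510.

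Lacking and lower regions were then combined. The 3021 pancreas-lacking regions and the 2770 shared regions that were lower and below all 10 others made 5791 low regions, and neighbours within 50 kb were joined into loci. This combination was chosen after seeing the data. Of these, 3513 (60.7%) were single, and 149 (2.57%) lay in loci of 6 or more. In pancreas 21 loci held 6 or more low regions, the third highest count of the 11 tissues, where colon had 0 and cerebellum had 903. Between them these loci held 6 to 11 low regions each, and 14 of the 21 held 6. The number of loci depended on the distance allowed and on the scale, with 5 loci at 20 kb, 75 at 100 kb, and 9 with folds scaled to shared regions.

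The locus with the most low regions was chr2:81914532-82117372, which spanned 202.8 kb and held 4 lacking and 7 lower regions among 92 union regions. Its 33 shared regions had a median pancreas log2 ratio of −0.32, and 23 lay below 0. The widest lower region, chr2:82074209-82083745 with 9537 bases, was in this locus. Pancreas had a relative fold of 1.57 in it, and the others ran from 2.03 in cerebrum through 3.65 to 6.87 in lung. The lowest pancreas ratio of the locus was −2.18 at chr2:82116729-82117372, with 0.342 in pancreas and 0.762 in liver as the next value. Pancreas peaks covered 43928 bases of the locus, while the other tissues covered 48920 in stomach to 66612 in ovary.

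A second locus, chr27:2976079-3143217, held 4 lacking and 6 lower regions in 167.1 kb. It contained the region chr27:3029246-3031071 described above, and 3 further lower or lacking regions lay within 10 kb before that one. Of its 35 shared regions 25 were below 0, with a median of −0.14, so that low regions lay among regions with ratios above 0. Ovary was lower still over the same shared regions, with a median log2 ratio of −0.45. The largest pancreas-lacking region there, chr27:2990889-2992976, had 2088 bases and values from 0.663 in stomach through 1.09 to 1.66 in cerebellum. Pancreas peaks covered 40016 bases of this locus, and those of the other tissues 50550 in stomach to 62685 in cerebrum.

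The locus chr35:3578606-3726103 was low over most of its length. Of its 37 shared regions 35 lay below 0 with a median of −0.62, and 5 lacking and 5 lower regions lay among them. At its first region, chr35:3578606-3579735, pancreas had 0.638 and cerebellum 0.734, while the median of the others was 3.05 and mammary gland had 4.64. Liver was low in this locus too, with a median log2 ratio of −0.55 over the same shared regions, and mammary gland was high with 0.56. Pancreas peaks covered 44699 bases, the least of the 11 tissues, with liver next at 52172 and ovary highest at 77722.

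**Figure D4:**
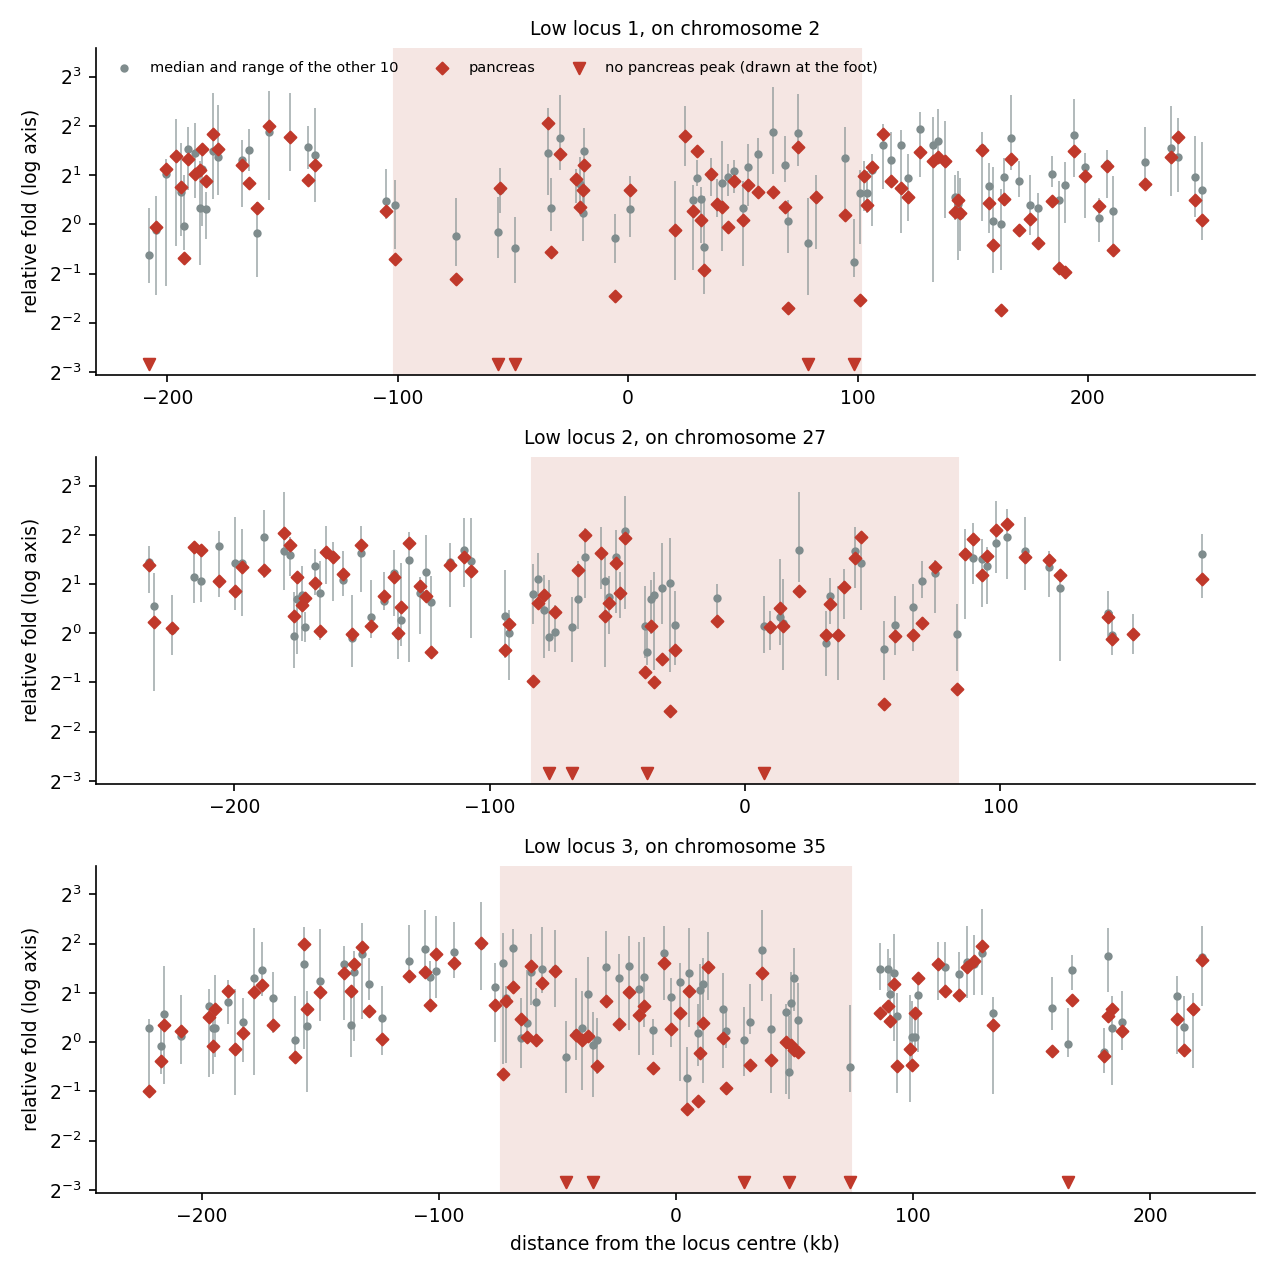
Relative fold (log axis) of union regions by distance in kb from the centre of the 3 loci with the most low regions, with pancreas as red diamonds and the median and range of the 10 other tissues in grey, for shared and pancreas-lacking regions. Red triangles at the foot mark regions without a pancreas peak, and the shaded span is the locus, which holds 11, 10 and 10 low regions from top to bottom.

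Smaller loci differed in how much of their length was low. At chr7:2928160-3037041, with 4 lacking and 4 lower regions, all 19 shared regions lay below 0 and their median was −0.80. Pancreas peaks covered 11062 bases of that locus and those of the other tissues 16116 in liver to 31689 in ovary. At chr38:648439-746435 the median of 10 shared regions was −1.0, and at chr6:16394887-16422405 all 6 shared regions lay below 0 with a median of −0.92. At chr25:48276124-48372330 the 24 shared regions had a median of −0.50. In contrast, the 33 shared regions of chr8:63749413-63886142, which held 9 low regions, had a median of −0.12, close to that of all autosomes. The 43 shared regions of chr13:29699951-29882785 had a median of −0.29. Every low locus was chosen for its low regions, so these medians describe the loci and support nothing further.

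By chromosome the pancreas ratio varied little. The lowest medians were −0.12 on chromosome 9, −0.12 on chromosome 20 and −0.11 on chromosome 4, and the highest −0.06 on chromosome 11, −0.06 on chromosome 33 and −0.05 on chromosome 19. The SD of the 38 chromosome medians was 0.0166 in pancreas, against 0.0150 in stomach to 0.0749 in cerebellum. The share of lower regions ran from 1.73% on chromosome 19 to 3.58% on chromosome 20. No chromosome was set apart as a whole, and the low loci were local.

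Chromosome 32 stood at the end of several measures. It had the fewest pancreas peaks per Mb (51.9, against 187 on chromosome 9), the narrowest median pancreas peak (238 bases, against 336 on chromosome 31) and the lowest share of union regions that were shared (18.7%, against 30.5% on chromosome 2). Narrow peaks there were not particular to pancreas, since the medians of the other tissues, 243 to 300 bases, were also the lowest range of the 38 autosomes. Chromosome 32 also had the highest rate of pancreas-only regions, 23.4 per 10000 union regions against 1.48 on chromosome 37, and the highest share of pancreas-lacking regions, 3.84% against 1.57% on chromosome 34. These rates rest on 11 pancreas-only and 35 pancreas-lacking regions, and 4 of the 11 are the single cluster chr32:8245269-8267104. Without that cluster the rate was 14.9 per 10000, below the 18.1 of chromosome 35 and the 16.9 of chromosome 30. None of the 877 shared regions of this chromosome was higher in pancreas. Over all autosomes the share of higher regions was 0.142%, at which few would be met among 877. Pancreas-only regions had median widths of 182 bases on chromosome 13 to 246 on chromosome 36, where they numbered 6 and 2. Pancreas-lacking regions had median widths of 338.5 bases on chromosome 23 to 539.5 on chromosome 35.

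**Figure D5:**
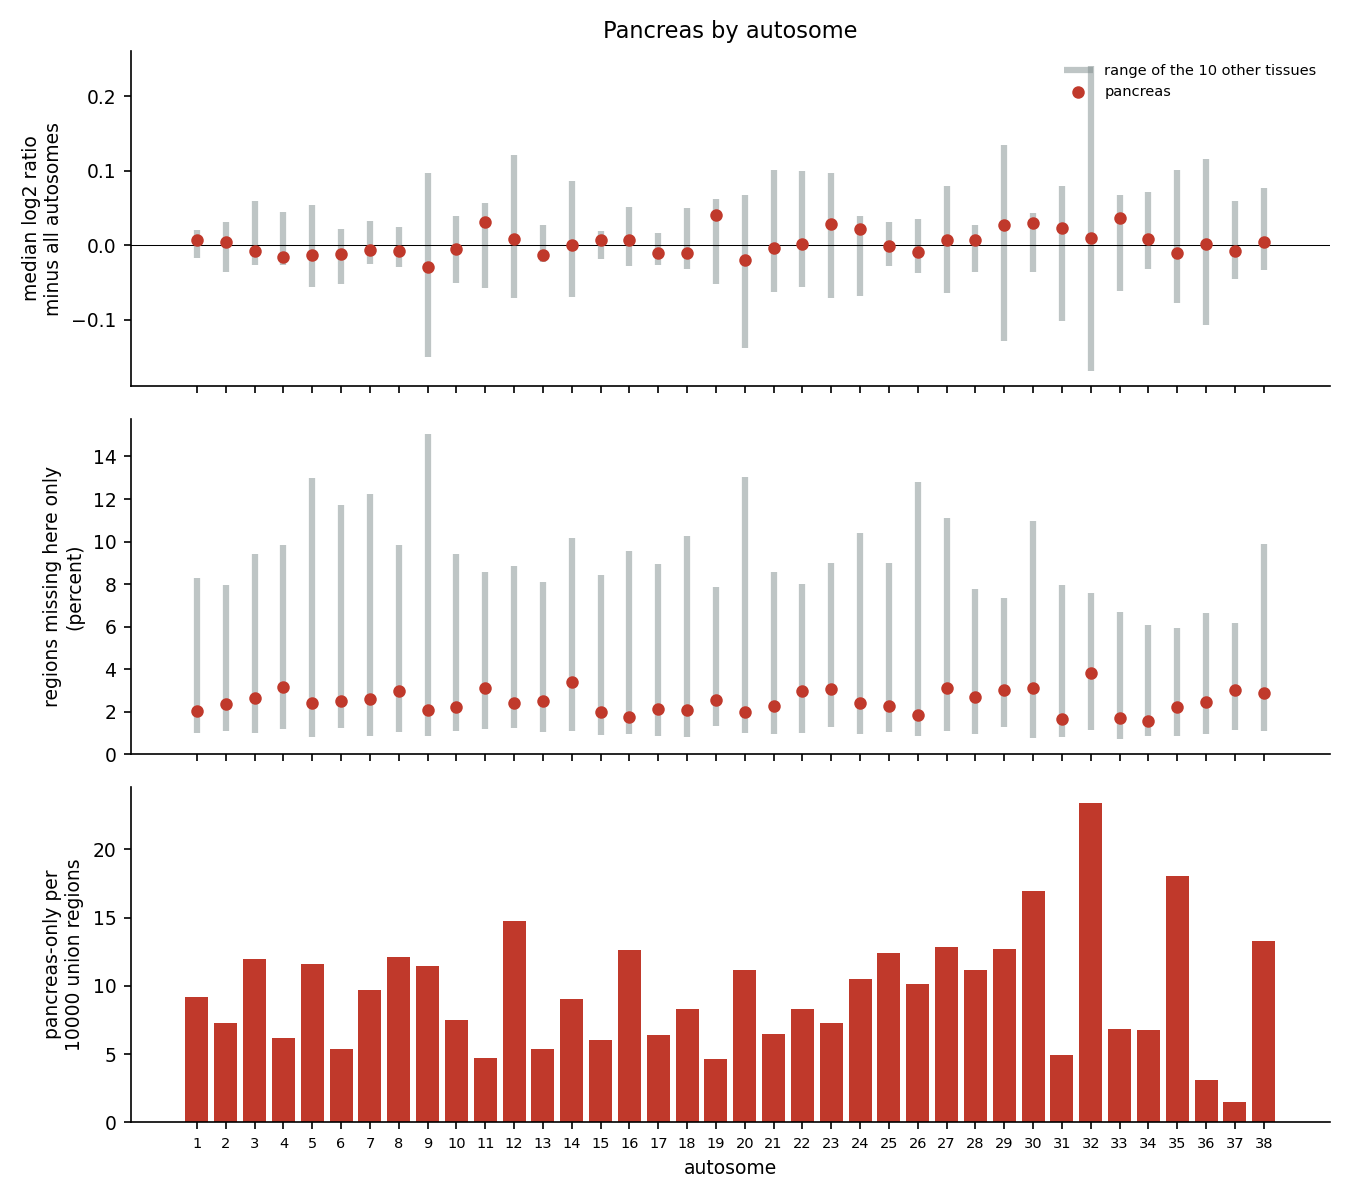
By autosome, the median log2 ratio of shared regions after subtracting the median over all autosomes (top), the percent of regions missing in a tissue alone (middle) and pancreas-only regions per 10000 union regions (bottom), with pancreas in red and the range of the 10 other tissues as grey bars in the upper 2 panels. The pancreas medians stay within −0.03 to 0.04, and chromosome 32 has the highest bar, 23.4.

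In windows of 1 Mb the pancreas ratio was again among the most even. Over 1673 windows with 20 or more shared regions, the SD of the window medians was 0.0873 in pancreas, against 0.0858 in stomach to 0.214 in cerebellum. The lowest windows were 36 to 37 Mb of chromosome 12 (median −0.46 over 24 regions), 39 to 40 Mb of chromosome 9 (−0.42 over 37) and 42 to 43 Mb of chromosome 2 (−0.40 over 22). In these 3 windows pancreas lay below the lowest other tissue, which was at −0.19 (liver), −0.25 (mammary gland) and −0.21 (mammary gland). They were chosen for their low pancreas values, so this describes them and supports nothing further. After subtracting the median over all autosomes, the lowest window was at −0.37 in pancreas. Those of the other tissues ran from −0.85 in cerebellum to −0.34 in spleen. The highest windows were 50 to 51 Mb of chromosome 25 (0.20 over 73 regions), 17 to 18 Mb of chromosome 12 (0.20 over 20) and 4 to 5 Mb of chromosome 25 (0.17 over 30). In each of these another tissue was higher, at 0.44 in mammary gland, 0.40 in cerebellum and 0.23 in ovary. The region chr25:50577598-50578233 named above lies in the first of them.

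Higher regions lay near the ends of chromosomes more often than shared regions did. Of the 173 higher regions, 30 lay within 1 Mb of the first or last peak of their chromosome, which is 17.3% (interval 12.4 to 23.7), compared with 7.55% of shared regions. For the other tissues the same share of their higher regions ran from 3.56% in kidney to 12.9% in mammary gland. With the 50% of each list that had the highest fold, the pancreas share was 13.2% of 38 regions against 11.1% of shared regions, a rank of 4 of 11. With equal list lengths by −log10 p-value it was 13.6%, a rank of 3, so that pancreas had the highest share on some settings and not on others. Lower regions were near an end in 5.76%, below the 7.55% of shared regions. Of the pancreas-only regions 6.46% were near an end, against 4.85% of all union regions, and the regions of 1 other tissue alone had 2.66% in ovary to 4.61% in spleen. The share for pancreas-lacking regions was 4.01%. This comparison was chosen after seeing the data. Of the 8 leading higher regions, 2 were near such an end, chr31:103522-103960 and chr19:53038643-53039251, and chromosome 33 had 3 higher regions within the first 1 Mb of its peaks.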

How the data were processed

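Methylated regions were measured by MBD-seq in 11 tissues, and 1 deposited peak list per tissue was used. Lists were assigned to tissues by the labels. The files have no header and follow the narrow-peak layout, which gave the meaning of each column. The score was taken as deposited, and 99.9994% of scores equalled the whole part of 10 times the −log10 p-value. The fold enrichment was a ratio deposited by the authors, with the control not given in the sources used here. The −log10 p-value of a peak was that deposited by the authors, and the summit offset was left unused. The build, CanFam3.1, is named in the submitters' processing notes. The aligner, the peak caller, the filters and the way the 2 libraries of a tissue were combined are not given in the sources used here. Folds, scores and p-values are the authors' own values of single peaks.

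Peaks of chromosomes 1 to 38 were merged with no gap allowed. The 10222 pancreas peaks on X were left out, and no peaks within a list overlapped. The relative fold, the log2 ratio and the sets were computed as described above, with no test because each tissue had 1 list. Neighbours were joined within 50 kb. Named regions were the 8 leading ones of each set (by relative fold, by the lowest value among the other lists, or by the log2 ratio where pancreas was outside the range of the others), the 5 largest clusters, and the 3 highest and 3 lowest chromosomes and windows. The pancreas set, the region sets and the rules were chosen with earlier results of these data known. Gene annotation and sequence of this build were not used here, so overlap with genes, sequence content and gene lists were not analysed here. The computations were tested on simulated lists. The tools were Python 3.11.15, numpy 2.4.6, pandas 2.3.3, scipy 1.17.1 and matplotlib 3.10.9. The alternatives were other selections of peaks, merging gaps, presence rules, scales and sets of other tissues.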

Additional observations from a re-analysis of the deposited data

Results flagged for a closer look

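In 31 groups of 10 values from the other tissues, examined for a highest or lowest value far from the rest by Dixon's 95% criterion, 2 stood out, and chance flags about 1 in 20 groups. Both values were those of cerebellum. Cerebellum alone lacked a peak in 13152 regions, while the next tissue did in 4367, so that the 3021 pancreas-lacking regions are set against a range that cerebellum widens. In the pancreas-lacking region chr21:8713668-8714016 the relative fold of cerebellum was 1.77 and the next highest was 1.41 in another tissue.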

How the results depend on the processing

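No paired analysis was possible because both libraries of a tissue share 1 list. The alternative window around promoters was not run. Pancreas-only regions (418) numbered 668 with lists reduced to the 50% of peaks of highest fold, 984 and 1037 with equal list lengths by fold and by −log10 p-value, 1856 against lists that hold peaks under 200 bases, 4466 against the 3 tissues with the same input animal, and 456 to 650 with 1 other tissue left out, with 640 without liver and 650 without ovary. Pancreas-lacking regions (3021) numbered 1283, 1488, 1524, 6595 and 22507 under the first 5 of these settings and 3291 to 3985 with a tissue left out. Higher regions (173) numbered 38 with the 50% lists, 295 with folds scaled to shared regions, 5007 by percentile points, 111 with presence by 50% of a region (applied to shared regions after seeing the data), and 176 to 241 with a tissue left out. Lower regions (3423) numbered 675 with the 50% lists, 1453 and 1644 with equal lengths by fold and by −log10 p-value, 7882 by percentile points, 1819 with presence by 50% of a region, and 3459 to 4264 with a tissue left out. The median log2 ratio of −0.0947 was −0.111 with overlap-weighted folds, −0.0163 scaled to shared regions and −0.0651 against the mean of the others. It was −0.0833 with presence by 50% of a region, −0.108 to −0.0857 with a tissue left out, and −0.00253 with equal lengths by −log10 p-value. With the sign reversed, it was 5.55e-06 with equal lengths by fold and 0.00905 percentile points by percentile. For this median, both equal-length settings and presence by 50% of a region were run after seeing the data. Clusters of 3 or more pancreas-only regions numbered 1 at 20 kb and 2 at 100 kb, and those of pancreas-lacking regions (47) numbered 18 and 97. The added count of low loci (21) was 5 at 20 kb, 75 at 100 kb and 9 scaled to shared regions. The cause of these differences was not tested. Merging peaks up to 200 bases apart (372, 2863, 155 and 3000 regions) kept the 4 counts within 1.5 times. The log2 ratios of the 16 named shared regions kept their sign and stayed past the limit in the settings run that gave one, from 1.23 to 2.01 and from −2.86 to −1.99. Ratios were had for 5 of the 8 higher and 0 of the 8 lower ones with presence by 50% of a region, 4 and 0 with the 50% lists, and 5 and 3 (by fold) or 5 and 4 (by −log10 p-value) with equal lengths. Percentile points and the 2 reduced sets of other tissues were not run for them. Of the named pancreas-only and pancreas-lacking regions, 7 of 8 pancreas-only ones remained so with the 200-base gap and 7 of 8 lacking ones with presence by 50% of a region. The lists left out and the shortened lists could hardly change these sets by their construction. Pancreas had the lowest count of regions of its own in the settings run for all tissues, except with equal lengths by −log10 p-value, where stomach had 1005.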
